A study of Mus musculus with 14 samples.

Results

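The 7 protein-coding genes described here, Tyr, Tyrp1, Prkdc, Cdkn2a, Mtor, Tph2 and Ahr, were chosen by name because the Balb/c mouse is known to carry an allele of each that is unlike the C57BL/6J reference genome. All 7 were found among the 21312 protein-coding genes listed in at least 1 of 12 tumours. For each gene, the count of every class of variant in a tumour was the highest count over its protein-coding transcripts, and a gene that a tumour did not list was taken as 0. The values are numbers of variants per gene from whole-exome sequencing of tumour DNA, not expression levels and not allele fractions.

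The tumours were p53null mammary tumours of Balb/c genotype, grown from mammary fragments implanted into mammary fat pads and collected at the end point, set by a diameter of 2 cm. In the gel experiment, 3 tumours (A7, A8 and A9) grew in fat pads that held a stiff gel of collagen 1 and basement membrane. Its collagen had been crosslinked with 500 mM L-ribose. A further 3 tumours (A1, A2 and A3) grew in fat pads with a soft gel of this kind without crosslinking. In the host experiment, 3 tumours grew in LysM-Cre GPX4 knockout (KO) mice (B4, B5 and B6) and 3 in LysM-Cre GPX4 wild-type (WT) mice (B1, B2 and B3). LysM-Cre is active in myeloid cells, so the knockout is in host cells and not in the implanted mammary cells. Lack of p53 in the implanted cells is shared by all 4 groups, and the strain of the LysM-Cre hosts is not given in the labels. Fragment donors were syngeneic and 8 to 10 weeks old, and gels were injected into mice of 3 to 4 weeks. A tumour sample also holds host cells. Wild-type Balb/c tails (2 samples) were not analysed here.

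The mouse reference genome is that of C57BL/6J, so a base that Balb/c inherited in another form is read as a variant in every Balb/c cell. Balb/c mice are albino through a missense allele of Tyr, which encodes tyrosinase, the first enzyme of melanin synthesis, and they also carry the brown allele of Tyrp1, which encodes a melanosomal enzyme. Prkdc encodes the catalytic subunit of the DNA-dependent protein kinase, which joins broken DNA ends, and its Balb/c form lowers that activity. Cdkn2a, which encodes the cell-cycle inhibitors p16INK4a and ARF in different reading frames, and Mtor, the kinase of the growth-controlling mTOR complexes, are known for Balb/c alleles linked to plasmacytoma susceptibility. Tph2 makes the brain enzyme that limits serotonin synthesis, and Ahr encodes the receptor for dioxins and other aryl hydrocarbons. All of these strain differences are known as, or include, missense changes, so the missense column is the one in which such an allele would be listed.

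For 6 of the 7 genes, a missense variant was not listed in every tumour. Whether inherited variants were kept among the calls is not given. The counts therefore do not tell whether the tumours carried the known alleles. Mtor had a missense variant in 12 of 12 tumours. Ahr had one in 5 tumours, Tyrp1 and Prkdc in 4 each, Tph2 in 3, Cdkn2a in 2 and Tyr in 1. A missense allele carried by all cells and kept among the calls would have been listed in all 12. Over all protein-coding genes, 1286 genes (6.03%) had a missense variant in all 12 tumours and 11150 (52.3%) in none. The median number of tumours with a missense variant was 4 for the 7 genes and 0 over all genes. With any protein-altering variant counted, meaning a HIGH impact change such as a frameshift, stop or splice-site change or a MODERATE one such as a missense change, 1 of the 7 genes was again listed in all 12 tumours, against 1593 of all genes (7.47%). The 1 in 7 rests on a single gene, and the counts were not divided by gene length, so nothing particular to these genes can be read from it. Positions and bases are not in the tables, so no listed variant, including those of Mtor, could be matched to a known strain allele. The sequences of the alleles were not shown for the same reason.

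**Figure D1:**
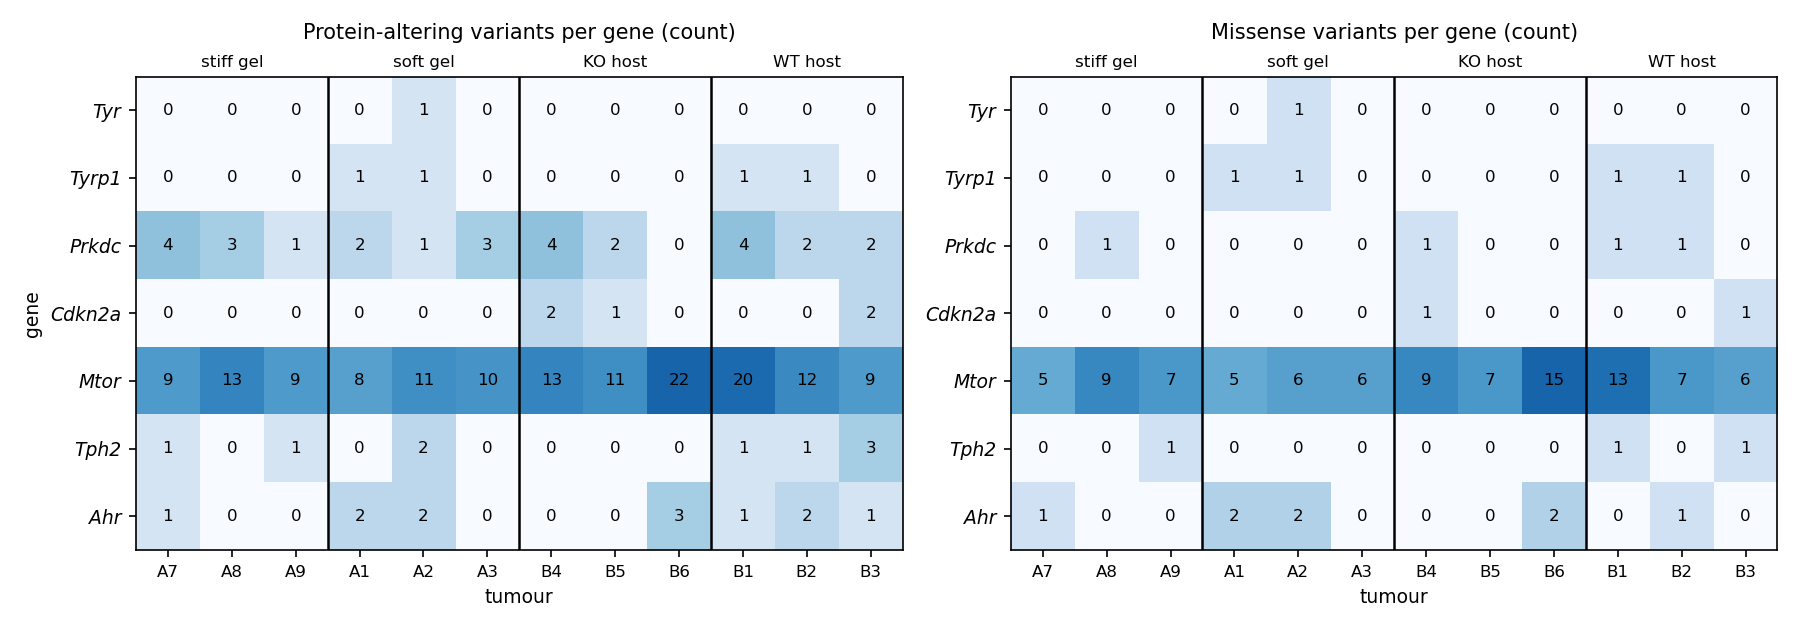
Protein-altering (left) and missense (right) variant counts of the 7 genes (rows) in the 12 tumours (columns, 3 for each of stiff gel, soft gel, KO host and WT host). Each cell prints the count, and darker cells hold more variants; only Mtor is above 0 in every column.

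**Figure D2:**
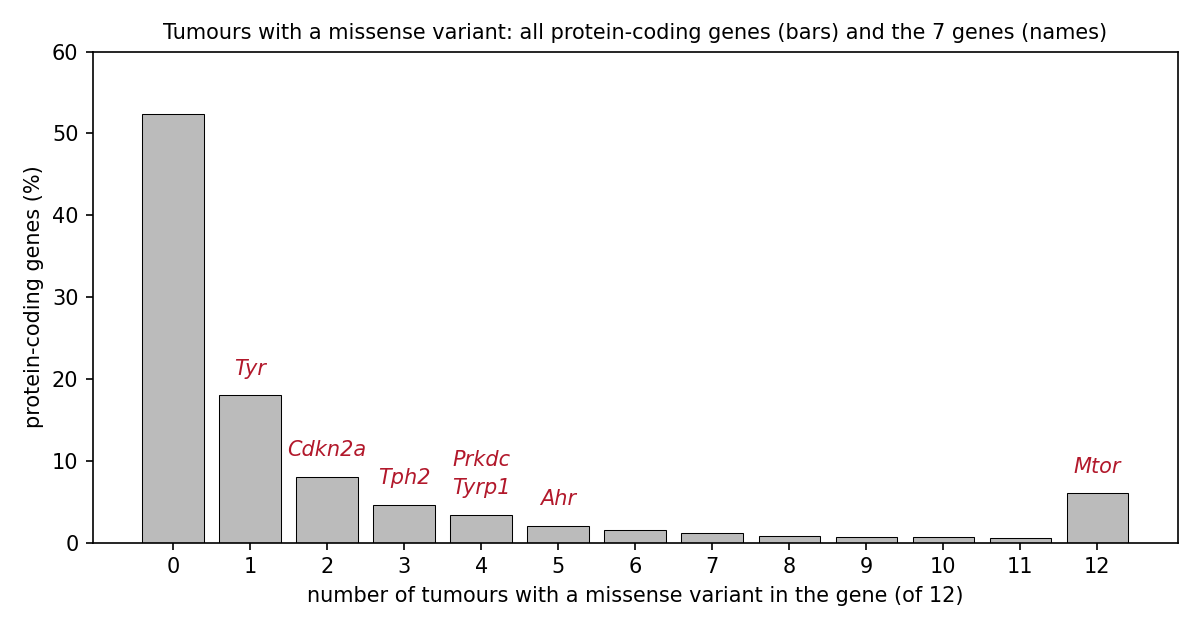
The share of all 21312 protein-coding genes (vertical axis, percent) by the number of tumours, out of 12, that list a missense variant in the gene (horizontal axis). Names mark the 7 genes: 6 lie between 1 and 5 tumours, and Mtor lies at 12, where 6.03% of all genes lie.

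Of the 2 pigment genes, Tyr had a coding sum of 1 over the tumours and Tyrp1 of 7, against a median of 2 over all protein-coding genes. Tyr (ENSMUSG00000004651, chromosome 7) had 1 missense variant in the soft tumour A2 and no coding variant of any kind in the other 11 tumours. The albino allele of Tyr is a missense change, yet 11 of 12 tumours of Balb/c genotype listed no missense variant there. MODIFIER variants, the class that holds mainly intronic and flanking changes, were listed for Tyr in all 12 tumours. More than 50x is stated for the libraries, but depth per site is unknown, so these calls do not tell whether its coding sites were read. MODIFIER variants numbered 5, 7 and 5 in stiff tumours A7, A8 and A9, against 16, 12 and 19 in soft tumours A1, A2 and A3. They numbered 11, 10 and 38 in KO-host tumours B4, B5 and B6, against 21, 16 and 17 in WT-host tumours B1, B2 and B3. Of the 177 MODIFIER variants summed over tumours, 166 were intronic. The other transcript of Tyr listed no coding variant.

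Tyrp1 (ENSMUSG00000005994, chromosome 4) had 1 missense variant in A1, A2, B1 and B2 and none in the remaining 8 tumours, so no stiff and no KO-host tumour listed one. Synonymous variants, which leave the protein as it is, numbered 1 in A1 and 2 in B2. Coding counts, the sum of HIGH, MODERATE and LOW impact, were therefore 0, 0 and 0 in stiff tumours, against 2, 1 and 0 in soft tumours, and 0, 0 and 0 in KO-host tumours, against 1, 3 and 0 in WT-host tumours. The groups overlap at 0 in both comparisons. The 3 transcripts with coding variants each held the same 4 missense and 3 synonymous variants in sum. MODIFIER variants were 0 in A7 and between 2 and 16 in the other tumours.

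Prkdc (ENSMUSG00000022672, chromosome 16) was listed in nearly every tumour, but mostly with changes other than missense. Its protein-altering counts were 4, 3 and 1 in stiff tumours, against 2, 1 and 3 in soft tumours, and 4, 2 and 0 in KO-host tumours, against 4, 2 and 2 in WT-host tumours. The groups overlapped in both experiments, and B6 was the single tumour with none. A missense variant was counted once each in A8, B4, B1 and B2. Frameshift variants were counted in 11 tumours, as 3, 2 and 1 in stiff tumours, 1, 1 and 2 in soft tumours, 2, 2 and 0 in KO-host tumours and 2, 1 and 1 in WT-host tumours. Of all protein-coding genes, 536 (2.52%) listed a frameshift in as many tumours. Splice donor variants were listed in A7, A8, A3, B5 and B1, stop-gained variants in B4 and B1, and in-frame deletions in A7, A1, A3 and B3. These classes overlap. In A7, A8, A3 and B5 the HIGH impact count equalled the frameshift count, at 3, 2, 2 and 2. The splice donor variant in each of these tumours was therefore also counted as a frameshift.

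Of the 28 protein-altering variants of Prkdc summed over tumours, 20 (71.4%) were of HIGH impact, against 27.2% of the 138497 summed over all protein-coding genes. The share was 55.6% of 9 for Tph2, 40.0% of 5 for Cdkn2a, 34.0% of 147 for Mtor, 25.0% of 12 for Ahr, and 0 for Tyr and Tyrp1. No synonymous variant of Prkdc was counted in any tumour. Without positions, variants of the same kind in several tumours may be the same change or different ones, and the sums count each tumour's variants anew. MODIFIER variants of Prkdc lay between 23 and 45 in every tumour.

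Cdkn2a (ENSMUSG00000044303, chromosome 4) held coding variants only in tumours of the host experiment. All 6 gel tumours listed none, and so did B6, B1 and B2. B4 had 1 frameshift variant, 1 missense variant and 1 synonymous variant. B5 had 1 frameshift variant alone. B3 had 1 missense variant, 1 in-frame deletion and 1 synonymous variant. The transcripts of Cdkn2a read shared sequence in different frames, and they sorted these variants differently. In B4 the transcript ENSMUST00000060501 counted 1 HIGH, 0 MODERATE and 1 LOW variant, whereas ENSMUST00000107131 counted 1 HIGH, 1 MODERATE and 0 LOW. In B3 ENSMUST00000060501 counted 1 MODERATE and 1 LOW variant, whereas ENSMUST00000107131 counted 2 MODERATE and 0 LOW. The coding sum of 3 in each of B4 and B3 may hold a single variant under both MODERATE and LOW. The edgeR quasi-likelihood test gave an adjusted p of 0.648 for the protein-altering counts in gel against host tumours. MODIFIER variants were few, with 1, 0 and 1 in stiff tumours, against 2, 4 and 3 in soft tumours, and 4, 4 and 2 in KO-host tumours, against 11, 10 and 3 in WT-host tumours.

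Mtor (ENSMUSG00000028991, chromosome 4) was the gene with coding variants in every tumour. Protein-altering counts were 9, 13 and 9 in stiff tumours, against 8, 11 and 10 in soft tumours. They were 13, 11 and 22 in KO-host tumours, against 20, 12 and 9 in WT-host tumours. The groups overlapped in both experiments, and the highest counts were those of B6 and B1. Missense variants made up most of them, with 5, 9 and 7 in stiff tumours, 5, 6 and 6 in soft tumours, 9, 7 and 15 in KO-host tumours and 13, 7 and 6 in WT-host tumours. The lowest missense count of any tumour was 5, so the gene held several missense variants in each tumour and not only a single allele.

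HIGH impact variants of Mtor were also listed in every tumour, between 2 and 7. A splice donor count of 2 was found in 11 tumours and of 1 in A3. Of all protein-coding genes, 62 (0.291%) had a splice donor variant in all 12 tumours. Frameshifts were listed in 11 tumours, between 1 and 4 each, with none in A9, and stop-gained variants in A7, A2, B6 and B1. Synonymous variants numbered 3 to 9 per tumour. The transcript ENSMUST00000103221 carried all 50 HIGH and 97 MODERATE variants of the gene's sum, and ENSMUST00000057580 carried 1 HIGH and 5 MODERATE. With the lowest transcript taken in place of the highest, Mtor no longer had a protein-altering variant in all 12 tumours.

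Tph2 (ENSMUSG00000006764, chromosome 10) had protein-altering counts of 1, 0 and 1 in stiff tumours, against 0, 2 and 0 in soft tumours, and these overlapped. In the host experiment it had 0, 0 and 0 in KO-host tumours, against 1, 1 and 3 in WT-host tumours, without overlap. Among the 5309 genes tested in that comparison, 4.26% were without overlap and lower in KO-host tumours, and the edgeR quasi-likelihood test gave Tph2 an adjusted p of 1 (unadjusted p = 0.0356). No fold is given, since all KO-host counts are 0. Missense variants were listed in A9, B1 and B3. Splice donor variants were listed in A7, A2, B2 and B3, and 159 genes (0.746%) had one in as many tumours. MODIFIER variants lay between 13 and 26 in every tumour.

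Ahr (ENSMUSG00000019256, chromosome 12) had missense variants in 5 tumours, with 1 in A7, 2 in A1, 2 in A2, 2 in B6 and 1 in B2. Protein-altering counts were 1, 0 and 0 in stiff tumours, against 2, 2 and 0 in soft tumours, and 0, 0 and 3 in KO-host tumours, against 1, 2 and 1 in WT-host tumours. HIGH impact variants were listed in B6, B2 and B3, once each, and in no gel tumour. LOW impact variants were also listed in host tumours only, with 2 in B5, 3 in B6, 3 in B2 and 5 in B3. The groups overlapped in both experiments.

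Across the tumours, the comparisons that the design implies gave no call in these genes for protein-altering variants. Counts were tested over all genes with a sum of at least 3 in the comparison, with edgeR's quasi-likelihood test and Benjamini-Hochberg adjustment at 0.05. In stiff against soft tumours, which addresses tissue stiffness, 0 of 4312 genes were called (0%), with 106 at an unadjusted p under 0.05 and 0 called by DESeq2. In KO-host against WT-host tumours, which addresses myeloid Gpx4, 0 of 5309 were called (0%), with 199 at an unadjusted p under 0.05 and 0 called by DESeq2. In gel against host tumours, which differ in gel, host genotype and experiment at once, 0 of 6830 were called (0%), with 414 at an unadjusted p under 0.05 and 5 called by DESeq2.

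Mtor, the gene with the highest counts here, averaged 10.3 ± 2.31 protein-altering variants in stiff tumours and 9.67 ± 1.53 in soft tumours (SD, n = 3 each). Its log2 fold change was 0.10 (SE 0.21), with an edgeR adjusted p of 1. It averaged 15.3 ± 5.86 in KO-host and 13.7 ± 5.69 in WT-host tumours (SD, n = 3 each), a log2 fold change of 0.16 (SE 0.42) with an edgeR adjusted p of 1. That difference in means, 1.67, was -1.67 without B6 and -0.67 without B3, and 4.45 when scaled to coding totals. It averaged 10.0 ± 1.79 in gel tumours and 14.5 ± 5.24 in host tumours (SD, n = 6 each), a log2 fold change of -0.53 (SE 0.25) with an edgeR adjusted p of 0.648. With total protein-altering counts as library sizes the log2 fold changes of Mtor were 0.24, 0.51 and -0.21 in the 3 comparisons, with edgeR adjusted p of 0.961, 0.929 and 0.842. For Prkdc the log2 fold change was 0.39 (SE 0.60) in stiff against soft and -0.39 (SE 0.91) in KO-host against WT-host tumours, with an edgeR adjusted p of 1 in both. The means of Prkdc were 2.33 ± 1.21 in gel and 2.33 ± 1.51 in host tumours (SD, n = 6 each). For Ahr the edgeR log2 fold changes were -1.67 (SE 1.32), -0.37 (SE 1.23) and -0.65 (SE 0.91) in the 3 comparisons in the same order, with adjusted p of 1, 1 and 0.932. Tyr passed the filter in none of the comparisons, and Tyrp1 in gel against host tumours alone, where its log2 fold change was 0 and its adjusted p 1.

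MODIFIER counts gave more variants per gene. In gel against host tumours the mean MODIFIER count was lower in gel tumours for 7 of 7 genes, and 1 of them, Ahr, passed the test. The share of all genes with a lower mean is not given, and the median log2 fold change over all genes tested was -0.20. Ahr had 27, 10 and 18 MODIFIER variants in stiff tumours and 7, 19 and 22 in soft tumours, against 17, 23 and 65 in KO-host tumours and 62, 72 and 78 in WT-host tumours. Every WT-host tumour and B6 had more than any gel tumour, and B4 and B5 lay within the range of the gel tumours. The mean was 17.2 ± 7.47 in gel and 52.8 ± 26.1 in host tumours (SD, n = 6 each). The fitted log2 fold change was -1.53 (SE 0.35), with an edgeR adjusted p of 0.0246. Of 20757 genes tested, 1095 (5.28%) were called lower in gel tumours, so Ahr is among many. The call was lost without A8, A9, A1, B6 or B1, with adjusted p between 0.0562 and 0.0711 and log2 fold changes between -1.57 and -1.13; over all 12 fits that leave out a tumour the adjusted p lay between 0.00892 and 0.0711.

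Whole-tumour MODIFIER totals moved with this result, at 335629 to 452751 in gel tumours and 334678 to 695818 in host tumours. With these totals as library sizes, the log2 fold change of Ahr was -1.07 (SE 0.27) with an edgeR adjusted p of 0.0354, the median over all genes was 0.23, against -0.20 at equal library sizes, and 464 of all genes (2.24%) were called lower in gel tumours. Per 100000 MODIFIER variants of the tumour, Ahr had 7.11, 2.80 and 5.36 in stiff tumours and 1.83, 4.2 and 5.36 in soft tumours, against 3.97, 6.87 and 10.3 in KO-host tumours and 8.91, 12.2 and 15.2 in WT-host tumours. On this scale all WT-host tumours and B6 again exceeded every gel tumour. Tyr, Tyrp1, Cdkn2a and Mtor had fitted log2 fold changes of -0.99, -1.25, -1.75 and -0.62 at equal library sizes, with edgeR adjusted p of 0.107, 0.132, 0.0667 and 0.0671. With the totals as library sizes they were -0.49, -0.80, -1.35 and -0.16, with edgeR adjusted p of 0.312, 0.277, 0.170 and 0.370. Prkdc and Tph2 had -0.02 and -0.14 at equal library sizes, and 0.43 and 0.28 with the totals as library sizes, so their sign turned with the scaling.

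In stiff against soft tumours, the MODIFIER counts of Tyr, Cdkn2a and Mtor did not overlap and were lower in stiff tumours, 3 of 7 genes against 8.12% of all genes tested. Mtor had 137, 152 and 121 in stiff tumours, against 158, 191 and 164 in soft tumours. None was called by edgeR: Tyr had a log2 fold change of -1.45 (SE 0.37) with an adjusted p of 0.393, Mtor -0.32 (SE 0.14) with 0.604, and Cdkn2a -1.98 (SE 0.89) with 0.620. The tumours' own MODIFIER totals were likewise without overlap, at 379517, 357191 and 335629 in stiff tumours, against 381482, 452751 and 410581 in soft tumours. With the totals as library sizes, the log2 fold changes were -1.25 for Tyr, -0.11 for Mtor and -1.78 for Cdkn2a, and the median over all genes was 0.05, against -0.16 at equal library sizes. Per 100000 MODIFIER variants of the tumour, Tyr and Cdkn2a were still lower without overlap (5.62% of all genes), whereas Mtor overlapped, with 36.1, 42.6 and 36.1 in stiff tumours, against 41.4, 42.2 and 39.9 in soft tumours. On that scale Prkdc was higher in stiff tumours without overlap (8.81% of all genes), with 10.0, 10.1 and 11.3 in stiff tumours, against 6.03, 6.85 and 9.99 in soft tumours. In KO-host against WT-host tumours the mean was lower in KO-host tumours for 6 of 7 genes, with overlap in all 7 and no call; 6.83% of all genes were without overlap and lower. The median log2 fold change over all genes was -0.30 at equal library sizes and 0.06 with the totals as library sizes. With the totals, the sign of the log2 fold change turned for Prkdc (0.03), Tph2 (0.17) and Tyrp1 (0.00), and Ahr (-0.73), Cdkn2a (-0.80) and Mtor (-0.07) stayed below 0.

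**Figure D3:**
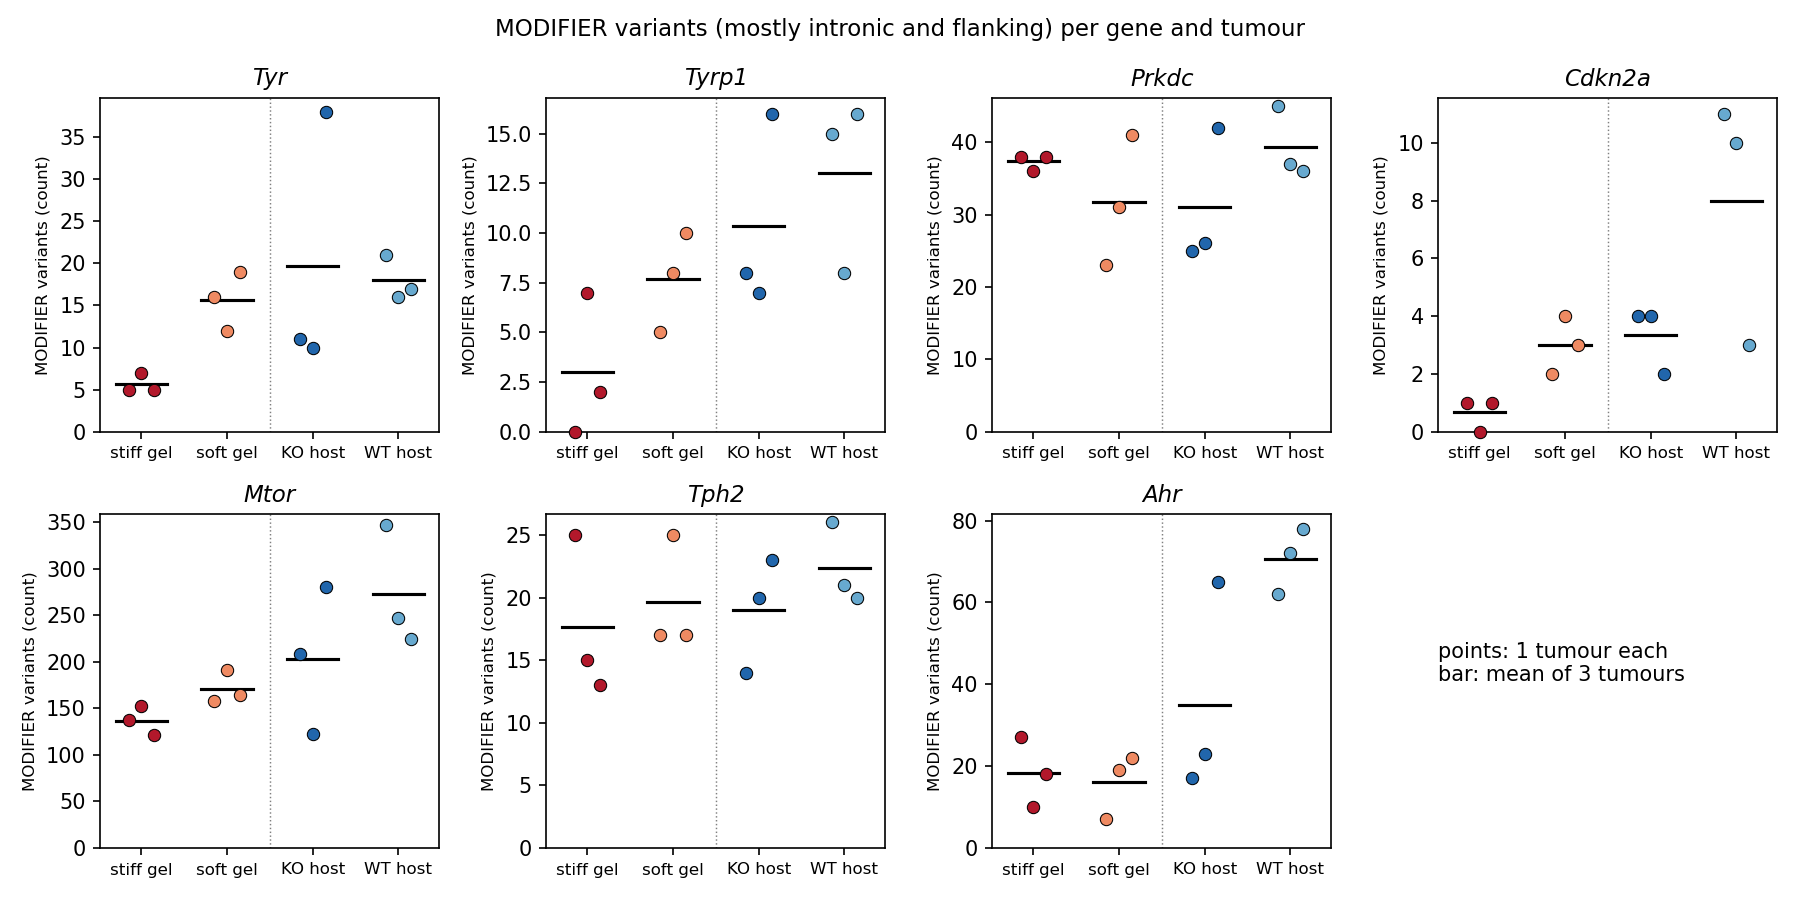
MODIFIER variant counts (vertical axis, a separate scale from 0 in each panel) of the 7 genes by group, with a point for each tumour and a bar at the mean of 3 tumours. As plotted, unscaled, stiff points lie below all soft points for Tyr, Cdkn2a and Mtor (Mtor overlaps when scaled to the tumours' totals), and for Ahr the WT-host tumours (62 to 78) lie above all gel tumours (7 to 27).

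The neighbouring genes were described for comparison. The 5 protein-coding genes on each side of every member were looked at, 70 in all, of which 69 were listed. Coding variants were found in all 12 tumours for 6 of the 69, in some tumours for 28 and in none for 35. Over all protein-coding genes the shares were 10.3% in all 12 tumours, 55.6% in some and 34.1% in none. A larger share of the neighbours than of all genes thus had none, and a smaller share had some. Only the share in all 12 tumours was near that of all genes. The difference was not tested. Of the 6, 4 were neighbours of Mtor: Disp3, Exosc10, which encodes a catalytic subunit of the RNA exosome, Masp2, a protease of the complement lectin pathway, and Tardbp, the RNA-binding protein TDP-43. Masp2 had 8, 8 and 9 coding variants in stiff tumours, 9, 8 and 8 in soft tumours, 9, 8 and 8 in KO-host tumours and 10, 9 and 9 in WT-host tumours. Mtor itself had 14, 18 and 15 in stiff tumours, 18, 18 and 15 in soft tumours, 22, 19 and 37 in KO-host tumours and 32, 19 and 17 in WT-host tumours. Masp2 thus stayed within a range of 8 to 10 in all groups, while Mtor ranged from 14 to 37. Disp3, on the other side of Mtor, ranged from 1 to 13.

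The neighbours of the other genes varied. Their median sum of coding variants was 7 around Ahr, 3 around Tyr and 0 around Prkdc, Cdkn2a, Tph2 and Tyrp1, against 11 around Mtor and a median of 2 over all protein-coding genes. For Prkdc, 6 of the 9 listed neighbours had none, and the highest sum was 2, in Mcm4, a subunit of the replicative helicase, against 28 in Prkdc. For Cdkn2a, 7 of 10 had none, Cdkn2b and Mtap among them, and the highest sum was 9, in Dmrta1. For Tph2, 6 of 10 had none, with Zfc3h1 highest at 5. For Tyrp1, 8 of 10 had none, and the other 2 held many: Ptprd, a receptor tyrosine phosphatase, held 71 with some in all 12 tumours, and the gene next to it in sum held 36 over 11 tumours. For Tyr, 4 of 10 had none, with the vomeronasal receptor gene Vmn2r79 highest at 22, and each of the 6 with any held more than the 1 of Tyr. For Ahr, 2 of 10 had none, and Snx13, a sorting nexin, was highest at 48, with 3 to 7 in every tumour.

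Mean MODIFIER counts were lower in gel than in host tumours for 9 of the 10 neighbours of Ahr, and for Agr2 they were 6.5 in gel and 5.67 in host tumours. These counts were not scaled to the tumours' totals, and the share of all genes with a lower mean is not given. The median log2 fold change over all genes tested was -0.20, so nothing particular to this region can be read from the count. Snx13, the direct neighbour of Ahr, had 66, 67 and 47 in stiff tumours and 58, 72 and 68 in soft tumours, against 68, 90 and 171 in KO-host tumours and 133, 137 and 114 in WT-host tumours. Hdac9, a histone deacetylase gene farther along, had 133, 79 and 64 in stiff tumours and 113, 106 and 141 in soft tumours, against 182, 100 and 381 in KO-host tumours and 290, 264 and 261 in WT-host tumours. B6 and the WT-host tumours were highest in both of these, as in Ahr, but not in every neighbour: Ferd3l had 10 in A1 and 0 in B1, Twist1 had 8 in A7 and 1 in B3, and Ankmy2 had 67 in A2 and 61 in B2. B6 and the WT-host tumours also had the highest MODIFIER totals of all 12, from 511983 to 695818. Apart from the scaled test above, the part of the totals in this result was not tested.

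**Figure D4:**
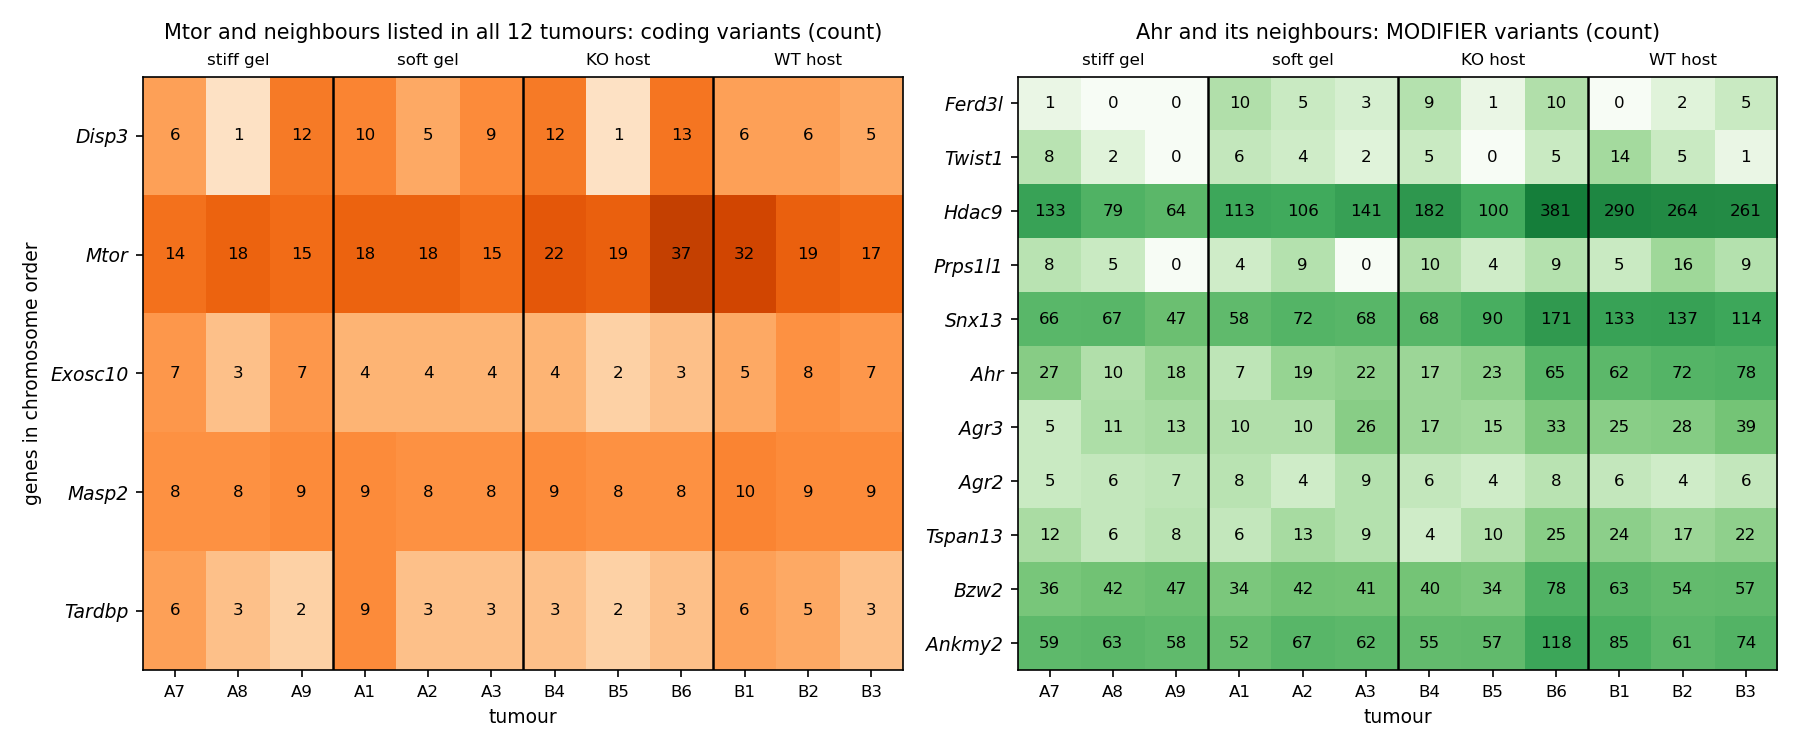
Coding variant counts of Mtor and those of its 10 neighbours with a coding variant in all 12 tumours (left) and MODIFIER counts of Ahr and the 5 genes on each side (right), with genes in chromosome order down the page and the 12 tumours across. Mtor, Disp3, Exosc10, Masp2 and Tardbp have coding variants in every tumour, and Ahr, Snx13 and Hdac9 have their highest MODIFIER counts in B6 and the WT-host tumours.

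Genes of the pathways in which the 7 act were counted in 6 lists, of which 92 of 94 genes were listed in the tables. A protein-altering variant was found in all 12 tumours for 9 of the 92, in some for 46 and in none for 37, near the 7.47%, 48.1% and 44.5% of all protein-coding genes, so the counts show nothing particular to the lists. Of the 92, 20 passed the filter in stiff against soft, 26 in KO-host against WT-host and 31 in gel against host tumours. None of these was called in the 3 comparisons, nor was any other gene tested. The 9 also had a missense variant in every tumour. In the mTOR list 4 of 17 genes were in all 12 tumours: Tsc2, which restrains mTOR complex 1, with 16 to 30 variants per tumour, Telo2, a chaperone partner of mTOR, with 13 to 17, Prr5, an mTOR complex 2 subunit, with 1 to 3, and its relative Prr5l with 1 to 2. The median sum over the 17 genes was 1, so Tsc2 (259) and Telo2 (182) stood far above the rest of the list.

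In the end-joining list, Trp53bp1, which encodes the break-binding protein 53BP1, had 7 to 10 in every tumour, while Xrcc4, a partner of DNA ligase IV, had variants in 4 tumours, 6 in sum, and 6 of 13 genes had none. In the pigment list, Atrn (1 to 5) and Myo5a (1 to 3) were in all 12 tumours, and 5 of 17 genes had none. Myo5a encodes the myosin of the dilute coat colour. Slc24a5, a melanosomal exchanger, had 34 in sum over 8 tumours. In the Ahr list, Arnt (1 to 6), which encodes the partner protein of the receptor, and Arnt2 (1 to 2) were in all 12 tumours, Ugt1a6a, an enzyme that adds glucuronic acid, had 38 in sum over 11, and 3 of 14 genes had none. In the list of cell-cycle genes around Cdkn2a none of 15 was in all 12 tumours, Rbl2 (22 in sum), E2f1 (13) and Npm1 (11) had the most, and 7 had none.

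In the serotonin list 12 of 16 genes had none, and none was in all 12 tumours. Htr2b, a serotonin receptor gene, had 4, 5 and 4 protein-altering variants in stiff tumours and 4, 4 and 4 in soft tumours. It had 0, 0 and 0 in KO-host tumours, against 4, 3 and 4 in WT-host tumours, the single gene of the lists that was listed in all 3 tumours of one group and in none of its comparison group. Of the 5309 genes tested in KO-host against WT-host tumours, 4.26% were without overlap and lower in KO-host tumours. That is a wider class, since it does not require KO-host counts of 0. The edgeR adjusted p of Htr2b was 1 in that comparison. Gch1, whose enzyme starts synthesis of the cofactor of tryptophan hydroxylase, had 7 in sum over 2 tumours, and Slc18a1 had 2.

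The pattern of each gene across tumours was set against that of all other protein-coding genes by the sum over 12 tumours of the absolute difference in coding count, where 0 means equal counts in every tumour. For Tyr, 353 genes had a sum of 0, each with 1 coding variant in A2 alone. Cdkn2a was closest to Zfp786, with a sum of 1, Tyrp1 to Apold1 and Ccdc162, with 2, and Tph2 to Ampd1 and Usp49, with 3. Prkdc was closest to Fbxo38, with 8, and Ahr to B4galt4, with 9. The closest to Mtor were Prrc2c with 43, Mapk8ip3 with 46 and Kif20b with 48. Low counts leave few possible patterns, so a small sum for Tyr, Tyrp1, Cdkn2a or Tph2 is easily reached.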

How the data were processed

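The exome libraries were made with the SureSelectXT kit and read as 150 bp pairs, to more than 50x, per the labels' protocols. BWA 2.2.1, SAMtools 1.19.2, GATK and the build GRCm39 were named in the submitters' processing notes. How variants were called and filtered, and whether tail DNA served as the normal, is not given in the sources used here. Per the file headers, the deposited tables were written by snpEff and give, for each transcript, a whole-number count of variants. With no position, base, read depth or allele fraction in them, depth per site is unknown and no interval is given. Variant files named in the labels were not analysed here.

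Each impact class was the maximum over protein-coding transcripts of a gene, and rows with a blank biotype (8962 to 11049 per tumour) were left out. A variant sorted differently by 2 transcripts can count in both classes, and a variant in overlapping genes counts in each. The same variant can also count under 2 effects, such as frameshift and splice donor. Groups were compared over all genes with edgeR 4.0.16 (R 4.3.3, quasi-likelihood, equal library sizes, sum of at least 3, Benjamini-Hochberg, threshold 0.05). The edgeR fit was also tried on simulated data, but how it did at low counts is not given here. That trial therefore does not tell whether a change could be called at protein-altering counts as low as those of most of the 7 genes. The other tool run was DESeq2 1.42.0. The approximate SE is the size of the log2 fold change divided by the square root of F. Labels name separate tumours only, so p-values measure the spread between them. MODIFIER fits were added after seeing the data. The genes, lists and tests were chosen with earlier results of these data known. All 7 genes were named, with the closest genes by coding count (up to 3), the 3 genes of each list with the highest sum, the neighbour with the highest sum, and list genes in 3 of 3 against 0 of 3 tumours; other neighbours and list genes named were chosen after their values were seen. Neighbours and chromosomes come from a RefSeq table of GRCm38.p6, so no coordinates are given. Some items are not reported here. Alternatives changed the transcript rule, filter, impact classes, biotypes, scaling, tool and tumours.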

Additional observations from a re-analysis of the deposited data

Results flagged for a closer look

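Among 42 sets of 6 tumours (gel or host) examined for a sample far from the others, 5 held one. Chance flags about 1 set in 20 where values are continuous, but that rate does not hold for low whole-number counts. The protein-altering and coding flags of Tyr rest on the same variant, and those of Tph2 on the same variants. Tyr had 1 protein-altering variant in the soft tumour A2 and 0 in the other gel tumours, and its coding count there was likewise 1. Tyrp1 had 3 coding variants in the WT-host tumour B2, above the 0 to 1 of the other host tumours. Tph2 had 3 protein-altering variants in the WT-host tumour B3, above the 0 to 1 of the other host tumours, and its coding count there was also 3. At counts this low a step of 1 or 2 variants is enough to set a tumour apart.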

How the results depend on the processing

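For protein-altering variants, edgeR called 0 genes in all 3 comparisons under each scaling, filter and transcript rule tried, while DESeq2 called 5 in gel against host tumours; leaving out a tumour gave 0 to 3 there (3 without A2) and 0 in the other comparisons. For MODIFIER variants, stiff against soft tumours gave 0 calls and 0 to 4 with a tumour left out (4 without A2); KO-host against WT-host tumours gave 0, and 35 with totals as library sizes. Gel against host tumours gave 1157 calls (62 higher and 1095 lower in gel), 726 with totals as library sizes (262 higher and 464 lower), and 114 (without A9) to 2620 (without B5) with a tumour left out, with 192, 247, 352, 511, 521 and 613 without A1, B1, A3, A8, B6 and B2 in turn. The Ahr MODIFIER log2 fold change lay between -1.72 and -1.13 with a tumour left out; its call was lost at -1.38 without A8, -1.52 without A9, -1.35 without A1, -1.13 without B6 and -1.57 without B1. The cause was not tested. Genes of the 7 with a protein-altering variant in all 12 tumours numbered 1, 0 with the minimum over transcripts and 1 to 2 with a tumour left out (2 without B6, where Prkdc is listed in all of the rest). Of the 21 differences in mean protein-altering count, scaling to coding totals moved 0 by more than the spread between replicates, although that of Mtor in gel against host tumours went to -1.71 in place of -4.5, and turned the sign of 2, and summing transcripts moved 2. Leaving out a tumour moved 0 of 168 and turned the sign of 10. No paired analysis was possible because the columns carry no replicate numbers shared between groups. Protein-altering counts of 0 to 4 limit 6 of the 7 genes, and depth per site is unknown.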
